A study of Mus musculus with 12 samples.

Results

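The macrophage, dendritic cell and MHC class II genes described here are 30 named genes, taken as a list by function. All 30 are among the 24421 genes counted. Of these, 24 held enough reads to enter the test across 13583 genes, and 6 (Ciita, Aif1, Trem2, Itgam, Cx3cr1 and Ccr2) did not. The data are 12 bulk RNA-seq libraries of whole islets from mice fed a high-fat diet for 6 weeks. In 6 libraries the islets came from Il22ra1βKO mice (BKO), in which β cells lack interleukin-22 receptor subunit alpha 1. The other 6 came from Ins2Cre mice (Cre). Ins2Cre places Cre recombinase under an insulin gene promoter, so the deletion is aimed at insulin-producing cells and not at the immune cells known for most of the 30 genes. The labels give no strain, sex, age or further allele of either group and do not tie a library to 1 animal, so the p-values reflect the spread among these libraries, which may be technical.

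Islets hold a small resident population of macrophages, which take up material released by β cells and present peptides from it. These cells are known for high MHC class II and for the integrin CD11c, the product of Itgax. Class II molecules are an α and a β chain that assemble on the invariant chain, the product of Cd74. Cathepsin S (Ctss) trims the invariant chain, and the DM heterodimer (H2-DMa and H2-DMb1) exchanges the remaining fragment for a peptide. The coactivator Ciita switches these genes on as a set, through a factor complex that binds the X and Y boxes of their promoters.

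The promoters of 3 class II members are shown because the same pair of boxes lies in each of them, and that of Itgax because it had the smallest p of the members. They are RefSeq windows on GRCm38.p6 (21 of the 30 members matched), from 250 bases before to 50 after the start, written 5′ to 3′ on the gene's strand. Capitals mark an X-box core (CTNGNAACT) and a Y-box core (TGATTGG) in the class II promoters. In the Itgax promoter they mark ATTGG, the reverse strand of CCAAT. H2-Aa lies at chr17:34287774-34288073 on the minus strand. H2-Eb1 at chr17:34305617-34305916, H2-DMb1 at chr17:34152941-34153240 and Itgax at chr7:128129300-128129599 are on the plus strand.
H2-Aa: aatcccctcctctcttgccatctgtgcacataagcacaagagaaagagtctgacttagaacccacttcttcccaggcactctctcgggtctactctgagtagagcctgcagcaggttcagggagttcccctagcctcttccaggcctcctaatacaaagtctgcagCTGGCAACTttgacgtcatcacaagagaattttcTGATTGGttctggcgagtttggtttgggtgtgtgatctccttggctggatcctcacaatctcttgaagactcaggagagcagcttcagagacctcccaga
H2-Eb1: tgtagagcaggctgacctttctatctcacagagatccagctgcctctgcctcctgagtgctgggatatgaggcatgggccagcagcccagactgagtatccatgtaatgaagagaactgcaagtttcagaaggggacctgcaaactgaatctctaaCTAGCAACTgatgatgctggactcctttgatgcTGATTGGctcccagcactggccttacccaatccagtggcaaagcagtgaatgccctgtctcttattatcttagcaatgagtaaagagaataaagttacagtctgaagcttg
H2-DMb1: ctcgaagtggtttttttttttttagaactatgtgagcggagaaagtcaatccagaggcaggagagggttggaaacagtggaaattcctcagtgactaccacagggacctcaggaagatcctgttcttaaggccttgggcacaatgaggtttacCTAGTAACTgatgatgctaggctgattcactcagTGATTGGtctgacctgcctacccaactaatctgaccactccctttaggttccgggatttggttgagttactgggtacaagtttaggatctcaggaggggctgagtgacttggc
Itgax: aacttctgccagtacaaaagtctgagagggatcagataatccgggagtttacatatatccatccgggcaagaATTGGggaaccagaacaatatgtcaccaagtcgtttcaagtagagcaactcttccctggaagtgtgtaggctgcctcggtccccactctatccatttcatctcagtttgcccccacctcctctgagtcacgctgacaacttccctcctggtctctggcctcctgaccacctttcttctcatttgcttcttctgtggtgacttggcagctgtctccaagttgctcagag
The gap between the boxes was 25 bases in H2-Aa, 24 in H2-Eb1 and 25 in H2-DMb1. An X-box core followed by a Y-box core on the same strand, 5 to 30 bases apart, was found in 5 of 32851 promoter windows (0.0152%, both strands searched), 3 of them these members. The other two were BC051142, in the same region of chromosome 17, and 1700048F04Rik on chromosome 5. The windows of H2-DMa and Ctss did not hold the pair. H2-Ab1 and Ciita were among the 9 members without a window, which were not searched. The letters of these cores were chosen after the sequences had been read. The letters planned before that were searched too. CCTNGNNAC, the planned X box, was in 15.8% of all windows and in 6 of the members' 23. These were windows of Ctss, Fcer1g, H2-DMb1, Mpeg1, Mrc1 and Trem2, not of H2-Aa or H2-Eb1. CTGATTGG, the planned Y box, which contains the core, was in 4.1% and in 2 (H2-Aa and H2-Eb1). No member therefore held both boxes as planned. CCAAT, which lies on the reverse strand within both Y-box forms, was in 37.4% and in 12 of the 23. GAGGAAGT, a site of the myeloid factor PU.1 (Spi1), was in 3.2% and in 2 (C1qc and Ctss). A match describes letters only.

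Libraries held between 10356093 and 12397139 reads in genes, and 3 reads, the floor used for a gene, were worth 0.242 to 0.290 CPM (counts scaled to library size). Il22ra1, the targeted gene, held 1 to 3 reads a library in BKO and 1 to 5 in Cre, too few to check the labels. The 10 β-cell markers summed to at least 97991 CPM in every library. Cre-1 stood apart by its share of reads with low alignment quality (27.3%, against 16.7% to 22.2% in the others). Acinar enzymes, from exocrine tissue, summed to 308 to 6909 CPM in Cre (median 1348) and 1543 to 5440 CPM in BKO (median 3606).

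None of the members passed the main test, and Itgax, lower in BKO, came nearest to it. The main test was edgeR's quasi-likelihood test, adjusted by Benjamini-Hochberg over all genes with a threshold of 0.05. It called 0 of the 24 members higher and 0 lower, and 0% of all genes in either direction. At an unadjusted p under 0.05 there were 0 members higher and 3 lower (Itgax, Mrc1 and C1qb), 12.5% of those tested. At that level 8.7% of all genes were higher, 4.66% lower and 13.4% either. DESeq2 called 1 member lower, Itgax, and 0 higher, where it called 0.398% of all genes lower and 1.24% higher. The median log2 fold change of the 24, BKO against Cre, was -0.059, with 10 positive and 14 negative, beside 0.0078 for all genes (52.8% higher and 47.2% lower). Without Cre-4 the members' median was 0.014, and without BKO-1 it was 0.013. For 15 of the 24 the fold change was smaller than its own standard error (SE). Their median SE was 0.27, against 0.089 for all genes. In whole islets, fewer cells of a type and less RNA per cell cannot be told apart.

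**Figure D1:**
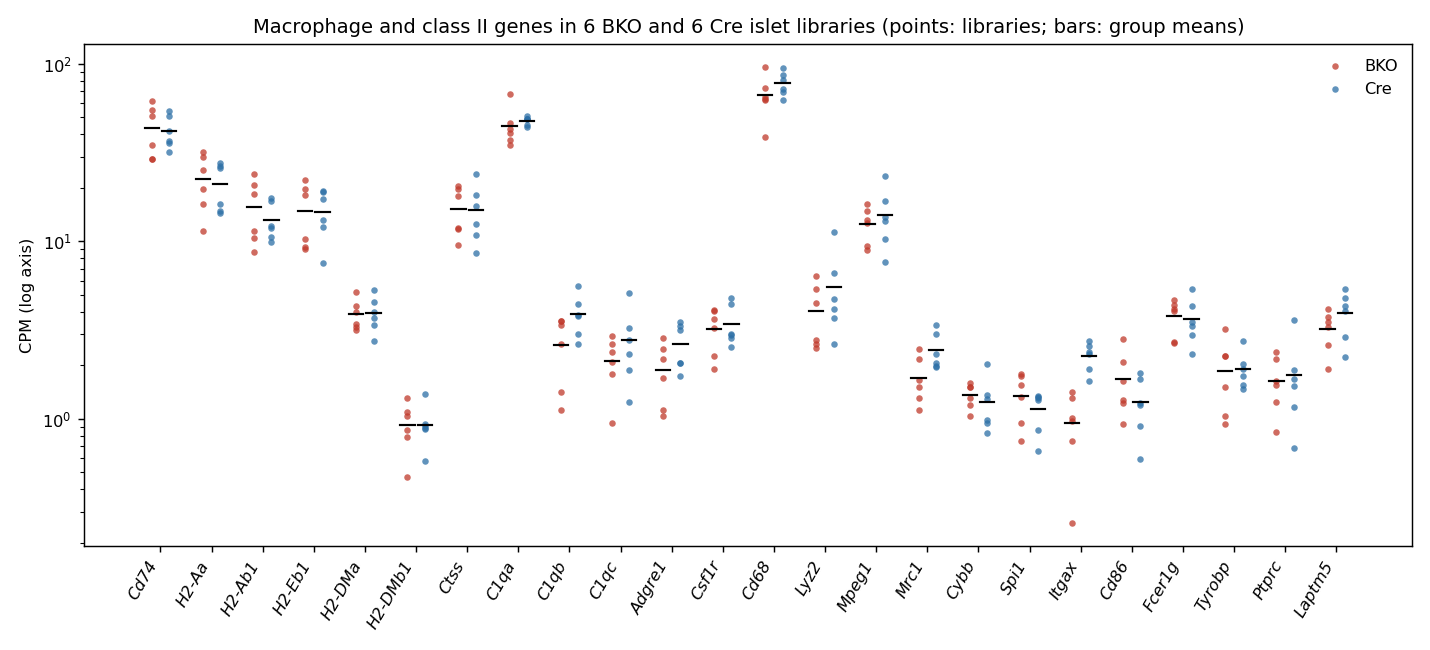
CPM of the tested members on a log axis in 6 BKO and 6 Cre libraries, one point per library, with bars at the group means. The groups overlap for every gene except Itgax, where BKO libraries sit between 0.259 and 1.42 CPM and Cre libraries between 1.63 and 2.74 CPM.

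**Figure D2:**
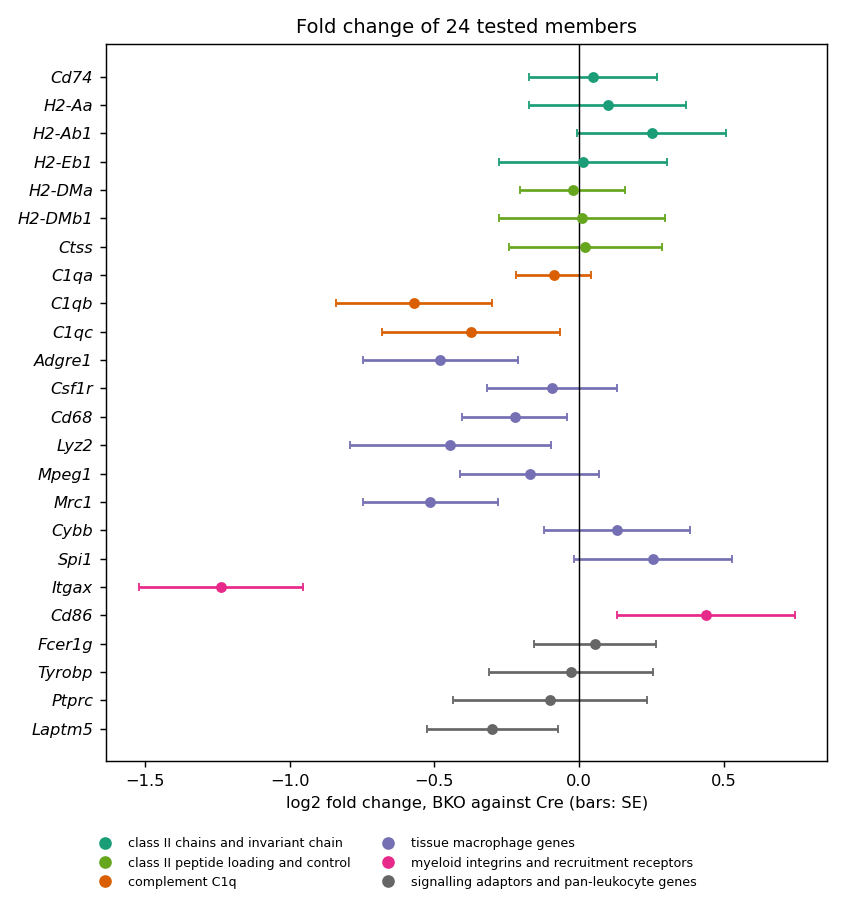
Log2 fold change of each tested member, BKO against Cre, with its SE as a bar and the role as its colour. The genes of the class II molecule lie at 0.013 to 0.25, and Itgax stands at -1.24 ± 0.28.

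The genes of the class II molecule differed between genotypes by less than the spread of libraries. Cd74 was at 28.97, 61.4, 50.7, 34.8, 54.6 and 29.2 CPM in BKO-1 to BKO-6, and 41.8, 51.03, 36.5, 54.5, 35.8 and 31.7 CPM in Cre-1 to Cre-6. The ranges overlapped almost whole, and the log2 fold change was 0.047 ± 0.22, adjusted p = 0.962. H2-Ab1, the β chain of I-A (chromosome 17, 34257689 to 34269419, plus strand), was at 11.5, 23.9, 18.5, 10.4, 20.8 and 8.73 CPM over the BKO libraries and 12.2, 16.8, 11.9, 17.5, 10.6 and 9.85 CPM over the Cre libraries. Its BKO libraries spanned a wider range that held all of the Cre values, and it had the smallest p of the 4 genes (0.25 ± 0.26, adjusted p = 0.750). H2-Aa, the α chain of I-A, was at 19.7, 31.8, 29.7, 16.1, 25.3 and 11.5 CPM over the BKO libraries and 27.7, 25.7, 16.2, 26.7, 14.7 and 14.5 CPM over the Cre libraries (0.10 ± 0.27). H2-Eb1, the β chain of I-E, was at 10.3, 22.1, 18.2, 9.06, 19.8 and 9.29 CPM over the BKO libraries and 19.2, 17.2, 13.1, 18.9, 12.02 and 7.54 CPM over the Cre libraries (0.013 ± 0.29). Both overlapped between genotypes. With the acinar score as a covariate the fold changes of Cd74, H2-Aa and H2-Eb1 were negative (-0.17, -0.13 and -0.28). H2-Ea-ps, which stands for the α chain of I-E, had 0 reads in all libraries.

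Levels ranged widely among libraries of 1 genotype. H2-Aa ran over a 2.78-fold range in BKO and H2-Eb1 over a 2.54-fold range in Cre. Cd74, H2-Aa, H2-Ab1, H2-Eb1 and Ctss shared their highest libraries: BKO-2, BKO-3 and BKO-5, and Cre-1, Cre-2 and Cre-4. Of all genes tested 0.375% (51, these 5 included) had both of those sets of 3. The sets were read off these 5 genes, so this share does not test whether their agreement is unusual. Per length the chains kept close ratios. Cd74 was between 3.86 and 5.23 times H2-Ab1 in the 12 libraries, and H2-Aa between 0.824 and 1.53 times H2-Ab1.

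**Figure D3:**
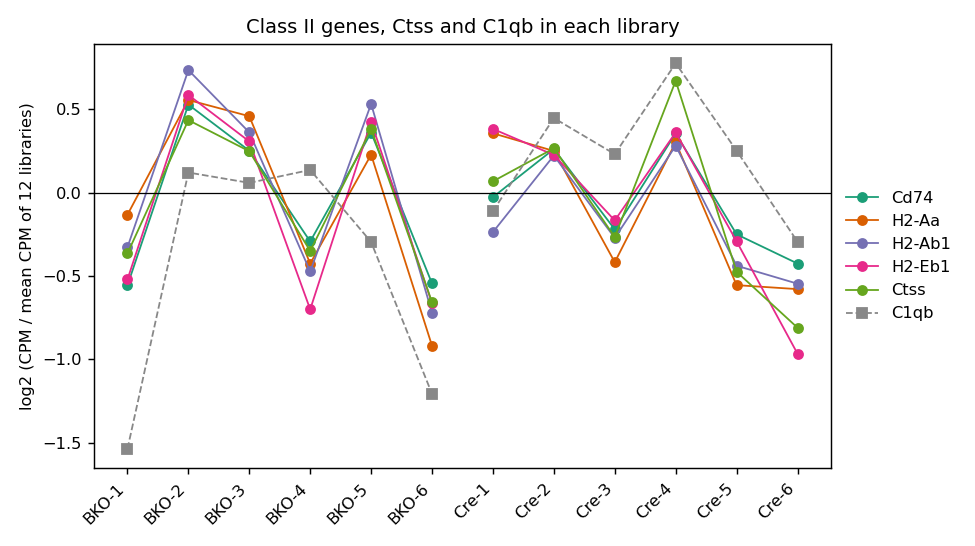
Log2 of CPM over the mean CPM of 12 libraries, for class II genes, Ctss and C1qb (grey, dashed) in each library (lines only join the points of a gene, since libraries have no order). Cd74, H2-Aa, H2-Ab1, H2-Eb1 and Ctss are highest in BKO-2, BKO-3 and BKO-5 and in Cre-1, Cre-2 and Cre-4.

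Peptide loading genes also overlapped. Ctss was at 11.7, 20.4, 17.9, 11.8, 19.7 and 9.57 CPM over the BKO libraries and 15.8, 18.1, 12.6, 24.02, 10.9 and 8.61 CPM over the Cre libraries (0.020 ± 0.26). H2-DMa was at 3.28, 3.18, 4.30, 4.01, 3.40 and 5.16 CPM over the BKO libraries and 2.75, 4.004, 4.53, 5.30, 3.70 and 3.40 CPM over the Cre libraries (-0.023 ± 0.18, adjusted p = 0.980). H2-DMa did not share the library order of the chains, its highest BKO library being BKO-6. It overlaps Brd2 on the opposite strand and, without a stated strand setting, reads of the pair cannot be told apart. H2-DMb1 was at 0.928 ± 0.289 CPM (BKO) against 0.926 ± 0.257 CPM (Cre) (SD, n = 6 each), and reads of its near copy H2-DMb2, which had 1 read in all libraries, may be split uncertainly. Ciita held 3 to 17 reads a library, 56 over all BKO and 43 over all Cre libraries, and overlaps Dexi on the opposite strand.

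The rest of the class II pathway held 0 genes called by edgeR or DESeq2. At an unadjusted p under 0.05, 1 was higher and 0 lower (8.7% and 4.66% of all genes). Of 16 listed genes 10 were tested, with 4 positive and 6 negative fold changes and a median of -0.0066. The smallest p belonged to Nfyb, a subunit of the Y-box factor NF-Y (0.20 ± 0.10, adjusted p = 0.367), and Rfxank, a subunit of the X-box factor RFX (-0.25 ± 0.12, adjusted p = 0.404). Next were the cathepsin Ctsl (0.11 ± 0.070) and the lysosomal thiol reductase Ifi30 (-0.10 ± 0.078). The class II genes H2-Oa, H2-Ob and H2-Eb2 had 1, 7 and 1 reads over all 12 libraries.

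Itgax, the CD11c integrin subunit of dendritic cells and islet macrophages, had the lowest ratio of BKO to Cre among the tested members and was the only one whose groups did not overlap. Such genes were 0.177% of all genes on the lower side, 0.331% on the higher and 0.508% in both. It spans positions 128129547 to 128150657 of chromosome 7, plus strand, overlaps no other gene, and its promoter is printed above. Its level was 0.259, 0.972, 1.01, 1.31, 1.42 and 0.751 CPM in BKO-1 to BKO-6, and 1.63, 2.56, 2.38, 2.74, 2.30 and 1.90 CPM in Cre-1 to Cre-6. Every BKO library lay below every Cre library. These levels stand for 3 to 15 reads a library in BKO and 19 to 31 in Cre. The log2 fold change was -1.24 ± 0.28 (SE), or 0.424-fold. The adjusted p was 0.127 by edgeR, 0.0127 by DESeq2 and 0.0664 by limma-voom, over a range of 0.0127 to 0.371 in 9 alternatives, the highest with the acinar score as a covariate. The exact two-sided permutation p was 0.00216, the smallest that 6 against 6 libraries can give and the value that groups without overlap must give. Permutation p-values were computed for the 3 members with an unadjusted p under 0.05 alone and are not adjusted. Leaving out a library moved the fold change between -1.39 and -1.05 and the adjusted p between 0.0311 (without BKO-4) and 0.347 (without BKO-2).

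The other integrin and the receptors of recruitment gave no call. Itgam, the CD11b subunit, whose gene lies near Itgax (chromosome 7, 128062640 to 128118491), held 3, 3, 17, 10, 6 and 8 reads in BKO and 4, 8, 20, 29, 17 and 9 in Cre. The groups overlapped. With no count filter its fold change was -0.79 ± 0.46 (adjusted p = 0.566), and it shares its locus with Gm49368 on the same strand. Cd86, a costimulatory ligand for T cells, was at 1.64, 2.83, 1.28, 2.09, 1.23 and 0.939 CPM over the BKO libraries and 1.81, 0.596, 1.19, 1.68, 1.23 and 0.911 CPM over the Cre libraries (0.44 ± 0.31, adjusted p = 0.594). Its groups overlapped, with BKO-2 highest and Cre-2 lowest. Cx3cr1, the fractalkine receptor, had 3 reads in BKO and 1 in Cre, with 8 of 12 libraries at 0. Its annotated span overlaps other genes, among them Csrnp1, Gorasp1 and Xirp1 on the same strand. Whether reads of Cx3cr1 were lost to this overlap was not tested. Ccr2, the CCL2 receptor of monocytes, had 17 and 9 reads, 11 of them in BKO-3. For Cx3cr1 and Ccr2 a difference was not detectable at this depth.

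C1q, which starts the classical complement pathway, is built from equal numbers of 3 chains and is made mainly by macrophages. Its genes lie side by side on the minus strand of chromosome 4: C1qb at 136880129 to 136886187, C1qc at 136889804 to 136893065 and C1qa at 136895917 to 136898803. No other annotated gene overlaps them. All 3 had negative fold changes, with a median of -0.37.

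C1qb was at 1.12, 3.53, 3.38, 3.57, 2.65 and 1.41 CPM in BKO-1 to BKO-6, and 3.01, 4.43, 3.81, 5.56, 3.87 and 2.65 CPM in Cre-1 to Cre-6. All 6 BKO libraries lay below the Cre mean and 3 below every Cre library, one of them (BKO-5, 2.647 CPM) by almost nothing (Cre-6, 2.650 CPM). The log2 fold change was -0.57 ± 0.27 (edgeR p = 0.0482, adjusted p = 0.370; exact two-sided permutation p = 0.0779). C1qc was at 0.948, 2.91, 2.38, 2.09, 2.65 and 1.78 CPM over the BKO libraries and 1.89, 3.24, 2.78, 5.12, 2.30 and 1.24 CPM over the Cre libraries (-0.37 ± 0.31), and its groups overlapped; without Cre-4 its fold change was -0.12. C1qa was at 67.2, 46.1, 40.9, 37.3, 34.8 and 42.7 CPM over the BKO libraries and 50.9, 44.9, 48.5, 44.2, 48.9 and 48.8 CPM over the Cre libraries (-0.088 ± 0.13). The BKO range held the whole Cre range, and without BKO-1 the fold change was -0.25.

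The chains were not at equal levels per length, and C1qa did not follow the others. As TPM (reads per exon length, scaled to the same total in each library), C1qa averaged 128 ± 18.97 over the 12 libraries, C1qb 8.65 ± 3.19 and C1qc 3.67 ± 1.58 (SD). C1qa was between 8.30 and 62.8 times C1qb, lowest in Cre-4 and highest in BKO-1. C1qb was between 1.40 and 3.79 times C1qc. Over libraries C1qa varied 1.65-fold, C1qb 5.29-fold and C1qc 5.76-fold. BKO-1 had the highest C1qa and the lowest C1qb and C1qc of all 12. The annotation behind the counts is not stated, and whether the C1qa count holds reads of another transcript was not tested.

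**Figure D4:**
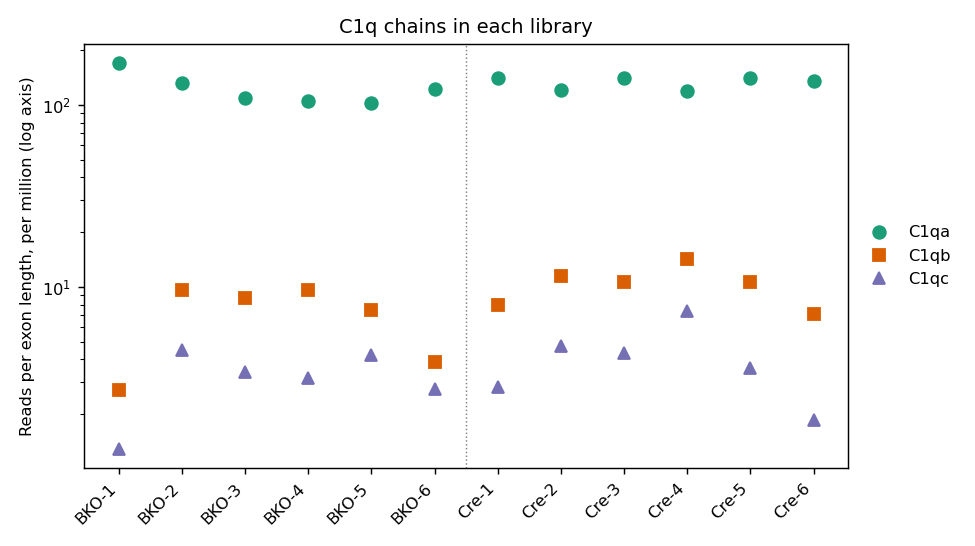
TPM of the 3 C1q chain genes on a log axis in each of the 12 libraries. C1qa lies between 103 and 169.6 TPM throughout, while C1qb and C1qc are at 2.70 and 1.29 TPM in BKO-1 and reach 14.3 and 7.42 TPM in Cre-4.

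Tissue macrophage genes had a median log2 fold change of -0.20 over the 8 tested of 10, with 2 positive and 6 negative. By edgeR and by DESeq2 0 were called, and 1 was lower at an unadjusted p under 0.05 (4.66% of all genes). Mrc1, the mannose receptor (chromosome 2, 14229392 to 14332057, plus strand), was at 1.12, 2.47, 1.65, 2.18, 1.51 and 1.31 CPM in BKO-1 to BKO-6, and 2.06, 1.96, 3.02, 3.36, 2.30 and 1.99 CPM in Cre-1 to Cre-6. Of the BKO libraries 4 lay below every Cre library, and the other two within the Cre range. The log2 fold change was -0.51 ± 0.23 (edgeR p = 0.0403, adjusted p = 0.350; exact two-sided permutation p = 0.0455). Adgre1, the F4/80 antigen, was at 1.12, 2.47, 2.84, 2.18, 1.70 and 1.03 CPM over the BKO libraries and 3.53, 3.32, 1.75, 3.18, 2.06 and 2.07 CPM over the Cre libraries (-0.48 ± 0.27, adjusted p = 0.474). Of its BKO libraries 3 lay below every Cre library. Lyz2, the macrophage lysozyme, was at 2.50, 6.36, 5.40, 2.79, 2.65 and 4.51 CPM over the BKO libraries and 4.73, 6.65, 4.13, 11.2, 3.70 and 2.65 CPM over the Cre libraries (-0.45 ± 0.35). Cre-4 was its highest library, and without it the fold change was -0.12; reads of its near copy Lyz1 may be split uncertainly.

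Csf1r, the receptor for the growth factors CSF1 and IL-34, was at 1.90, 3.27, 4.12, 3.66, 4.07 and 2.25 CPM over the BKO libraries and 2.84, 4.43, 3.02, 4.77, 2.55 and 2.98 CPM over the Cre libraries (-0.095 ± 0.22), and its groups overlapped. It was positive without BKO-1 (0.013) and without Cre-4 (0.012). Mpeg1, a pore-forming protein of phagocytes, was at 12.5 ± 2.92 CPM (BKO) against 14.1 ± 5.46 CPM (Cre) (-0.17 ± 0.24), and at 0.017 without Cre-4. The 2 positive genes were Cybb, the catalytic subunit of the phagocyte oxidase (1.36 ± 0.216 CPM (BKO) against 1.24 ± 0.438 CPM (Cre); 0.13 ± 0.25), and Spi1, the myeloid transcription factor PU.1 (1.35 ± 0.428 CPM (BKO) against 1.13 ± 0.295 CPM (Cre); 0.25 ± 0.27). Aif1, the macrophage marker Iba1, held 6, 8, 6, 5, 2 and 7 reads in BKO and 19, 8, 6, 25, 4 and 2 in Cre. Its high values were in Cre-1 and Cre-4, and the other libraries of both genotypes overlapped. Trem2, a lipid receptor of macrophages, held 1 to 11 reads a library.

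Cd68, a lysosomal glycoprotein, had the highest level per length of all 30, 166 ± 37.9 TPM (SD over 12 libraries). It was at 38.8, 62.1, 65.3, 96.1, 63.4 and 73.02 CPM over the BKO libraries and 69.3, 71.7, 80.9, 94.3, 62.3 and 86.9 CPM over the Cre libraries (-0.22 ± 0.18, adjusted p = 0.668), and the groups overlapped. Per length it was between 71.7 and 149 times Csf1r. Eif4a1, a translation factor gene read from the same strand, ends 782 bases before the Cd68 gene on chromosome 11 and was at 511 to 622 CPM. Eif4a1 was highest in BKO-1, where Cd68 was lowest.

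In the order of level per length, Cd68 and C1qa were followed by Cd74 (73.5 ± 20.1 TPM), Ctss (32.1 ± 10.4), H2-Eb1 (21.9 ± 7.64), H2-Aa (16.4 ± 5.20) and H2-Ab1 (16.2 ± 5.75). Of these, Ctss and H2-Eb1, H2-Eb1 and H2-Aa, and H2-Aa and H2-Ab1 differed by less than the larger of their SDs. The place of C1qa carries the doubt on its count given above. With the longest transcript in place of all exons H2-Ab1 was at 26.6 TPM, above Ctss at 24.9 TPM and H2-Eb1 at 19.8 TPM. The other 23 members were at 12.3 TPM (Fcer1g) or below.

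The signalling adaptors and leukocyte genes had a median log2 fold change of -0.064 over 4. Fcer1g and Tyrobp carry the activating signal of Fc receptors and of TREM2. Fcer1g was at 2.67, 4.06, 4.66, 4.18, 4.35 and 2.72 CPM over the BKO libraries and 3.35, 4.35, 3.50, 5.39, 2.96 and 2.32 CPM over the Cre libraries (0.053 ± 0.21), and its groups overlapped. Tyrobp was at 1.87 ± 0.871 CPM (BKO) against 1.91 ± 0.453 CPM (Cre) (-0.029 ± 0.28). Ptprc, the leukocyte common antigen CD45, was at 1.64 ± 0.568 CPM (BKO) against 1.76 ± 1.005 CPM (Cre) (-0.10 ± 0.34), and its fold change was 0.22 without Cre-4. Laptm5, a lysosomal protein of blood cells, was at 1.90, 4.15, 3.75, 2.61, 3.50 and 3.29 CPM over the BKO libraries and 2.24, 4.77, 4.05, 5.39, 2.88 and 4.31 CPM over the Cre libraries (-0.30 ± 0.23), and its groups overlapped.

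The members' extremes gathered in a few libraries. Cre-4 was the highest Cre library for 16 of the 24 tested members, and for 17.7% of all genes. Cre-6 was the lowest for 12 (17.5% of all genes). In BKO, BKO-2 was the highest for 12 (14.3% of all genes), BKO-1 the lowest for 12 (20.5%) and BKO-6 the lowest for 9 (12.8%). Acinar markers were on average also lowest in Cre-6 among Cre, and in BKO-6 and BKO-1 among BKO, but highest in Cre-2 and BKO-5. Without Cre-4 the median of the tissue macrophage genes was -0.055 and that of the C1q genes -0.12. Without BKO-1 these medians were -0.10 and -0.25.

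Other macrophage genes were of both signs. Of 28 listed genes 21 were tested, 13 positive and 8 negative, with a median of 0.067. By edgeR 0 were called and 4 were higher at an unadjusted p under 0.05, and DESeq2 called 1. Of all genes, for this list and those that follow, 8.7% were higher at that unadjusted p. DESeq2 called 1.24% of all genes higher, and 52.8% were positive. The smallest p belonged to Cd14, the lipopolysaccharide co-receptor (12.4 ± 6.13 against 5.15 ± 1.53 CPM; 1.27 ± 0.32, adjusted p = 0.156; DESeq2 adjusted p = 0.00704). Lyve1, which lymphatic endothelium also makes, was at 0.46 ± 0.13, and the receptor kinase Axl at 0.46 ± 0.21. Vsig4 and Clec10a had 0 reads, and Cd163, Marco and Timd4 had 7, 2 and 6 in all.

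Dendritic cell genes were at unequal levels. Cd209a had 0 reads, and Xcr1, Clec9a, Batf3 and Flt3 had 10, 21, 12 and 25 over 12 libraries. Zbtb46 had 262, Ly75 607 and Cd40 1817. Of 14 listed 5 were tested, all 5 positive (median 0.24). By edgeR 0 were called and 3 were higher at an unadjusted p under 0.05; DESeq2 called 1. Cd40, which is also made outside dendritic cells, was at 15.9 ± 2.11 against 10.6 ± 1.94 CPM (0.58 ± 0.12, adjusted p = 0.121; DESeq2 adjusted p = 0.00782). Zbtb46, also an endothelial gene, was at 0.64 ± 0.20, and Cd24a, also an epithelial gene, at 0.24 ± 0.075.

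Of 12 growth factors and chemoattractants of macrophages 7 were tested, all 7 positive, with a median of 0.50 and 0 called by edgeR. Of these 6 had an unadjusted p under 0.05 (8.7% of all genes on the higher side), and DESeq2 called 1 (1.24% of all genes). Cx3cl1, the ligand of the nearly undetected Cx3cr1, was at 39.9 ± 7.95 against 28.3 ± 3.41 CPM (0.50 ± 0.12, adjusted p = 0.148; DESeq2 adjusted p = 0.0183). Cxcl12 was at 0.59 ± 0.17, Il34 at 0.46 ± 0.18 and Ccl2, the ligand of Ccr2, at 1.12 ± 0.45. Of 14 macrophage cytokines and effectors 10 were tested, 9 positive, with a median of 0.30. Here 0 were called by edgeR or DESeq2, and 4 were higher at an unadjusted p under 0.05. Pdgfb was at 0.47 ± 0.15, Il6 at 1.53 ± 0.47, Tgfb1 at 0.32 ± 0.14 and Il1rn at 0.49 ± 0.22.

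Markers of vessel and connective tissue cells, which also make several of these genes, were among those higher on average in BKO. All 12 endothelial markers were positive (median 0.45), with 0 called by edgeR and 8 by DESeq2, and their sum was 607 to 872 CPM in BKO and 481 to 689 CPM in Cre. Their mean log2(CPM + 0.5) differed by 0.43 (exact two-sided permutation p = 0.00649, 0.0714 after adjustment over 11 cell types; n = 6 each). Of 12 stellate and mesenchymal markers 11 were positive (median 0.42; sum 67.5 to 116 against 45.3 to 107 CPM; score difference 0.52, exact permutation p = 0.0455, adjusted 0.0804). The score of the duct markers differed by 0.37 (exact permutation p = 0.0216, adjusted 0.0804) and that of the α and δ cell markers by 0.32 (exact permutation p = 0.0693, adjusted 0.0847). Acinar markers had the largest score difference, 0.94 (exact permutation p = 0.180, adjusted 0.198), with 11 of the 12 tested positive (median 0.56). Beside the 8 endothelial markers, DESeq2 called 2 stellate and mesenchymal, 2 duct and 3 α and δ cell markers higher (1.24% of all genes). It called 1 β-cell marker lower (0.398% of all genes) and 0 acinar markers. The score of the β-cell markers differed by -0.21 (exact permutation p = 0.0584, adjusted 0.0804). The part of these cells in the growth factor, cytokine and dendritic cell lists was not tested.

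Several markers of other immune cells were near 0, and others of the same lists were not. Ms4a1 and Pax5 of B cells, which also carry class II, had 3 and 4 reads over 12 libraries, while Cd79a had 289, Fcer2a 255 and Cd22 112. Together the 11 B and plasma cell genes summed to 5.39 to 6.86 CPM in BKO and 4.86 to 6.47 CPM in Cre. The 14 T and NK cell genes summed to 3.79 to 5.75 and 2.65 to 4.53 CPM, mostly Lck, with Cd3e at 5 reads and Cd8b1 and Ncr1 at 0. Ighm, Ighd and Igkc of the B and plasma cell list were not among the genes counted. Neither were Trac and Trbc2 of the T and NK cell list, nor Ly6g of the neutrophil list. The sums leave these genes out. Of the monocyte and neutrophil genes Retnlg and Mpo had 0 reads and Ly6c2 had 3, while S100a9 had 409 and Plac8 558, and Lcn2, which epithelia also make, gave most of their sum (55.5 to 184 against 48.6 to 77.7 CPM). The mast cell genes Mcpt4, Cma1 and Tpsb2 had 0 reads, and the mast cell sum of 2.26 to 3.85 and 1.49 to 3.18 CPM was mostly Hdc.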

How the data were processed

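Islet RNA was extracted with TRIzol and read in pairs on a NovaSeq instrument after VAHTS library preparation, per the labels' protocols. The submitters' processing notes name HISAT2 2.0.5, HTSeq and mm10. Annotation and strand setting: not given in the sources used here. Values: the authors deposited raw counts of reads for each gene symbol (24421 genes); 5 summary lines of each file were kept out of totals. A deposited series-wide table was not used.

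The members and lists were chosen with earlier results of these data known. Counts were tested with edgeR 4.0.16 (R 4.3.3), using filterByExpr, TMM, robust glmQLFit and glmQLFTest; p-values were adjusted over 13583 genes. CPM uses TMM-scaled library sizes. TPM and gene positions use GENCODE M21 on GRCm38, which is mm10. Exact permutation tests use all 924 splits of 6 against 6. Replicates differed beyond sampling noise (chi-square over degrees of freedom, 5.08 to 30.05). Every member was named; of other lists, at most the 4 genes of smallest p. Some list genes that this takes are not reported here. Other list genes named by their reads, and Eif4a1, were chosen after their values were seen. Marchf1 and H2-Ea were read as March1 and H2-Ea-ps. Alternatives were other scalings and filters, DESeq2 1.42.0, limma-voom (limma 3.58.1), no robust fit, a replicate block, an acinar covariate, and each library left out.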

Additional observations from a re-analysis of the deposited data

Results flagged for a closer look

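Within the 6 libraries of a genotype, each member's highest and lowest value was compared with its nearest neighbour (the gap as a share of the range, against Dixon's 95% critical value for 6 samples); chance passes this in about 1 in 20 groups, and 58 groups were looked at. C1qa in BKO-1, at 67.2 CPM (780 reads), stood above the next BKO library at 46.1 CPM, while C1qb and C1qc were lowest in that library. Ccr2 in BKO-3, at 1.01 CPM, stood above the next BKO library at 0.259 CPM; this is 11 reads.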

How the results depend on the processing

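Of the 24 tested members 15 had a fold change below its SE, replicate libraries differed beyond sampling noise, and 6 further members had too few reads to test. The labels give both genotypes replicate numbers 1 to 6 but do not say that they pair libraries, and same-numbered libraries deviated together (correlation over 0.1) in 4 of 6 pairs, and in 4 the best correlation was with the own number. With the replicate number as a block edgeR called 292 genes higher and 72 lower, and 1 member lower, Itgax. DESeq2 called 169 higher and 54 lower, and 1 member lower, again Itgax. With a library left out, edgeR called between 0 and 135 genes higher and between 0 and 127 lower, and between 0 and 1 members lower. Both upper ends, and the call of Itgax, came without BKO-4, and without Cre-5 105 were higher and 5 lower. Without BKO-3 5 were higher and 0 lower, and without Cre-1 1 was higher and 5 lower. No alternative called a member higher. Itgax was negative in every fit that held it; requiring at least 10 reads in all libraries removed it, with H2-DMb1, Spi1, Cd86 and Ptprc.

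Of the 24 tested members 13 kept their sign in all alternatives and left-out fits that held them, and 11 did not. The acinar covariate turned Cd74 (-0.17), H2-Aa (-0.13), H2-Eb1 (-0.28), H2-DMb1 (-0.11), Ctss (-0.23) and Fcer1g (-0.15) negative; the cause was not tested. H2-DMb1 was also negative with DESeq2 (-0.0011), RLE (-0.00033), limma-voom (-0.059), no count filter (-0.0047) and the block (-0.0011), and H2-Eb1 with no filter (-0.00079) and the block (-0.0073). Leaving out a library gave ranges of -0.095 to 0.13 for Cd74, -0.044 to 0.22 for H2-Aa, -0.15 to 0.11 for H2-Eb1, -0.13 to 0.069 for H2-DMa, -0.13 to 0.14 for H2-DMb1, -0.11 to 0.19 for Ctss, -0.19 to 0.013 for Csf1r, -0.31 to 0.017 for Mpeg1, -0.056 to 0.19 for Fcer1g, -0.25 to 0.092 for Tyrobp and -0.28 to 0.22 for Ptprc. The median of the members ranged from -0.13 to 0.014 over the left-out fits and from -0.22 to -0.053 over the other alternatives. By role, the median of the class II chains was -0.15 with the acinar covariate, and that of the integrins and recruitment receptors was 0.42 with no count filter, where genes of very few reads enter it. Over the longest transcript C1qa was at 99.1 TPM.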

Other observations

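Ccr7, a chemokine receptor of migrating dendritic cells and naive lymphocytes, was at 5.60 CPM (68 reads) in Cre-5 and between 0.177 and 0.946 CPM in the other Cre libraries. It was at 0.523 to 2.03 CPM in BKO. It was chosen after its values were seen. Hemoglobin genes Hba-a1, Hba-a2, Hbb-bs and Hbb-bt had 0 reads in all 12 libraries. Alas2, of the same red blood cell list, had 111 reads in all, and these counts do not measure how much blood the islets held.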
